A study of Rattus norvegicus with 11 samples.

Results

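Every gene was compared between rat hippocampal neurons that expressed H1.4 CFT, a linker histone H1.4 mutant with a C-terminus frameshift tail, and neurons that expressed wildtype H1.4 (WT H1.4). The comparison took in 8 of the series' 11 libraries, 4 of each form, and a GFP control (n = 3) is given beside it. All 3 groups were primary hippocampal neurons of CD (Sprague Dawley) IGS rats at day 7 in vitro (DIV7) and carried an exogenous construct, so that H1.4 CFT and WT H1.4 differ, per the labels, in the form of the histone. The promoter, the way of delivery, the share of cells that took up the construct, the species of the H1.4 sequence and the number of animals in a culture are not given in the labels. Single libraries are written CFT 1 to 4, WT 1 to 4 and GFP 2 to 4, after the replicate numbers of the labels. The labels call them biological replicates without naming cultures or animals, and p-values therefore measure the spread between these libraries.

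H1.4 is one of the somatic linker histones. A linker histone sits where DNA enters and leaves the nucleosome, and its long, lysine-rich C-terminal tail binds the linker DNA and favours the folding of chromatin. Frameshifts that alter this tail in the human gene are known from Rahman syndrome, a disorder with intellectual disability. The question the comparison addresses is how the transcriptome of neurons with the mutant tail differs from that of neurons given the normal histone.

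Polyadenylated RNA was sequenced, and the counts of reads per gene were the authors' deposited values. The total over genes was 16748377 to 18264770 reads in the 4 H1.4 CFT libraries, 14205621 to 18846492 with WT H1.4 and 12070941 to 16923850 with GFP. Of 42172 genes listed, 29259 had a count in some library and 17294 had enough to be tested. Levels are CPM, which are counts scaled to the size of the library (TMM), with mean ± SD (n = 4 per histone group). Bracketed values after a gene's name are its log2 fold change ± SE, positive where H1.4 CFT was higher. Rose, fell and higher or lower calls are used only where the Benjamini-Hochberg adjusted p of edgeR's quasi-likelihood test was under 0.05. Endogenous H1f4, the rat H1.4 gene, had 5 to 8 reads per CFT library, 1 to 5 per WT library and 0 to 2 per GFP library, which was too few to test and does not check the labels, since no source used here says whether construct reads could align to it.

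Libraries with equal or neighbouring numbers deviated together: numbers 1 and 2 formed one pair across the groups and numbers 3 and 4 another, and the labels do not say what the numbers mark. The gene-level p-values treat the 4 libraries of a histone group as independent, and a block by pair was not run. The H1.4 CFT effect was also fitted in each pair alone. Where rises outnumbered falls in a gene list in one pair and falls outnumbered rises in the other, both counts are given.

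H1.4 CFT and WT H1.4 differed in the level of 35.9% of the genes tested, mostly by small amounts, and the direction depended on how abundant a gene was. Of the 17294 genes tested, 2893 rose (16.7%) and 3324 fell (19.2%), together 35.9%. Of these calls, 2774 were under 1.25-fold, 1815 between 1.25 and 1.5-fold, 944 between 1.5 and 2-fold and 684 over 2-fold. Over all genes tested 472 genes rose at least 2-fold (2.73%) and 212 fell at least 2-fold (1.23%), and beyond 4-fold there were 89 rises and 5 falls. Among genes of at least 5 CPM in 3 libraries the order turned, with 58 rises and 99 falls of at least 2-fold. The split of the calls depended on scaling, with 46.5% of the calls higher here and 57.3% with upper-quartile scaling (3711 higher, 2768 lower), where the median log2 fold change over all genes was 0.06 in place of 0.02. In libraries 1 and 2 alone 2030 genes rose and 2730 fell, and in libraries 3 and 4 alone 3446 rose and 4081 fell. The genes that fell at least 2-fold numbered 115 in the first pair and 473 in the second. No gene had at most 1 count in every library of one group and at least 10 in every library of the other. The H1.4 CFT libraries all lay above the WT H1.4 libraries in 2790 genes tested (16.1%) and all below in 3200 (18.5%).

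Among the most abundant genes, those with a mean over 100 CPM in the 11 libraries, 1017 of 2498 fell (40.7%) and 272 rose (10.9%). Among the 1676 genes tested with a mean under 1 CPM the order was the opposite, with 267 rises and 42 falls. Between 5 and 20 CPM 631 genes rose and 594 fell of 3755, and between 20 and 100 CPM 1220 rose and 1435 fell of 6413. The filter on low counts keeps a rare gene if it is high in any group, and without the filter the genes under 1 CPM gave 491 rises and 69 falls. Falls outnumbered rises over 100 CPM, and rises outnumbered falls under 5 CPM, within each number pair and with upper-quartile scaling too (424 rises and 819 falls over 100 CPM).

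**Figure D1:**
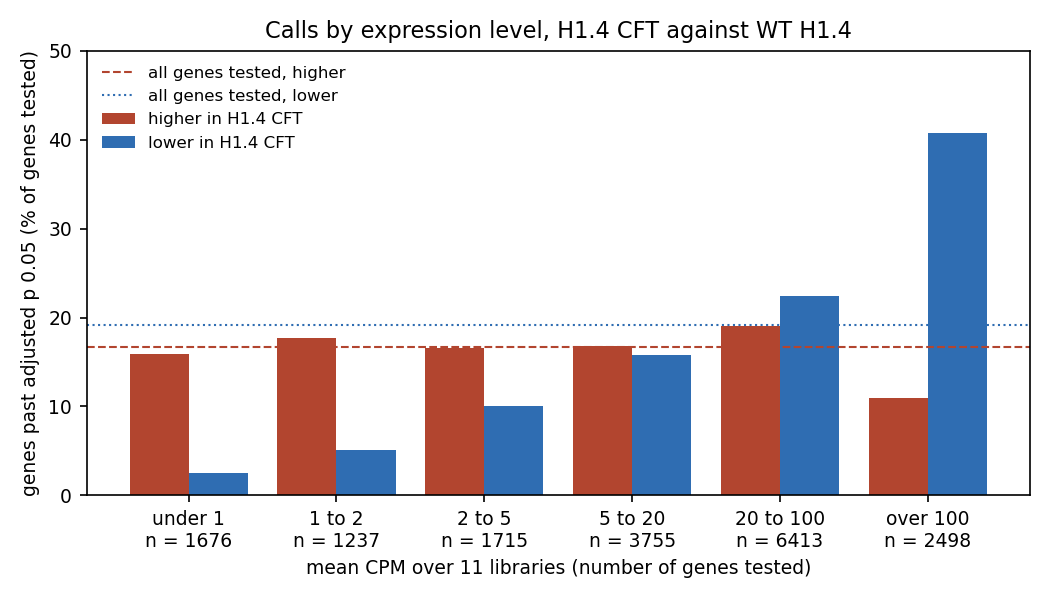
Share of genes called higher (red) and lower (blue) with the mutant than with WT H1.4, as a percent of the genes tested (vertical axis), in bins of the mean CPM over the 11 libraries (horizontal axis). Dashed and dotted lines mark the shares over all genes tested (16.7% and 19.2%). The share of lower calls climbs from bin to bin to 40.7% over 100 CPM.

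Whole-library measures moved with the same groups. With every library thinned to 12070941 counts, 22820 ± 76.4 genes had a read with H1.4 CFT, 21720 ± 136 (SD, n = 4) with WT H1.4 and 22000 ± 58.4 (n = 3) with GFP. The 100 most abundant genes took 13.8 ± 0.215% of the counts with H1.4 CFT and 14.6 ± 0.163% with WT H1.4. In exact two-sided permutation tests both differences had p = 0.0286, the smallest that 4 against 4 libraries can give, and an adjusted p of 0.0442 over 17 measures. Every measure at that smallest p has this same adjusted value. The permutations moved single libraries freely and ignored the number pairs. Splits kept within the pairs are fewer and could not give a p this small. The H1.4 CFT libraries also had more reads that did not align (1.51 ± 0.146% against 0.895 ± 0.0476%, and 1.65 ± 0.246% in GFP) and more mitochondrial counts (3.26 ± 0.115% against 2.81 ± 0.139%), both with exact p = 0.0286 and adjusted p = 0.0442. The part of these differences in the results below was not tested.

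The genes that separated the groups most clearly by p went both ways. Baiap3 read 11.3, 11.5, 14.9 and 14.5 CPM over CFT 1 to 4, 2.82, 2.68, 2.21 and 2.43 over WT 1 to 4 and 2.91, 3.27 and 2.65 over GFP 2 to 4. Baiap3 takes part in the exocytosis of dense-core vesicles, and its CFT libraries were all above the other 7 (log2 fold change 2.36 ± 0.14 SE, adjusted p = 2.8e-09). Kcnip3 read 21.2, 24.3, 22.7 and 24.2 CPM over CFT 1 to 4, 8.78, 9.48, 9.81 and 9.16 over WT 1 to 4 and 7.27, 8.56 and 7.63 over GFP 2 to 4. Kcnip3 encodes DREAM, a calcium-binding partner of potassium channels that can also repress transcription, and its groups did not overlap (log2 fold change 1.31 ± 0.09 SE, adjusted p = 8.4e-09). Gja1 read 124, 125, 128 and 131 CPM over CFT 1 to 4, 83.1, 88.4, 80.7 and 81.98 over WT 1 to 4 and 101, 99.4 and 102 over GFP 2 to 4. Gja1 encodes connexin 43, the main gap junction protein of astrocytes, and here too the H1.4 CFT libraries lay above all WT H1.4 and GFP libraries (log2 fold change 0.61 ± 0.04 SE, adjusted p = 1.1e-08).

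On the falling side, Nrip3 read 142, 144, 137 and 135 CPM over CFT 1 to 4, 217, 223, 221 and 239 over WT 1 to 4 and 226, 235 and 233 over GFP 2 to 4. Nrip3 is a nuclear receptor interacting protein gene by name, and its H1.4 CFT libraries were all below the others (log2 fold change -0.69 ± 0.04 SE, adjusted p = 2.8e-09). Dtx4 read 125, 125, 109 and 108 CPM over CFT 1 to 4, 184, 179, 194 and 176 over WT 1 to 4 and 182, 180.3 and 185 over GFP 2 to 4. Dtx4, an E3 ubiquitin ligase of the Deltex family, also had histone groups that did not overlap (log2 fold change -0.65 ± 0.05 SE, adjusted p = 6.0e-08). Chgb read 79.1, 79.5, 72.97 and 69.3 CPM over CFT 1 to 4, 117, 116, 118 and 114 over WT 1 to 4 and 117, 129.5 and 126 over GFP 2 to 4. Chgb encodes chromogranin B, a core protein of dense-core vesicles, and it fell with no overlap between the histone groups (log2 fold change -0.63 ± 0.05 SE, adjusted p = 6.0e-08). Among the 8 genes with the smallest p, 3 have no name beyond a locus number: LOC102548682 fell (-1.14 ± 0.07), and LOC102551184 (2.37 ± 0.16) and LOC102554907 (2.78 ± 0.19) rose.

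**Figure D2:**
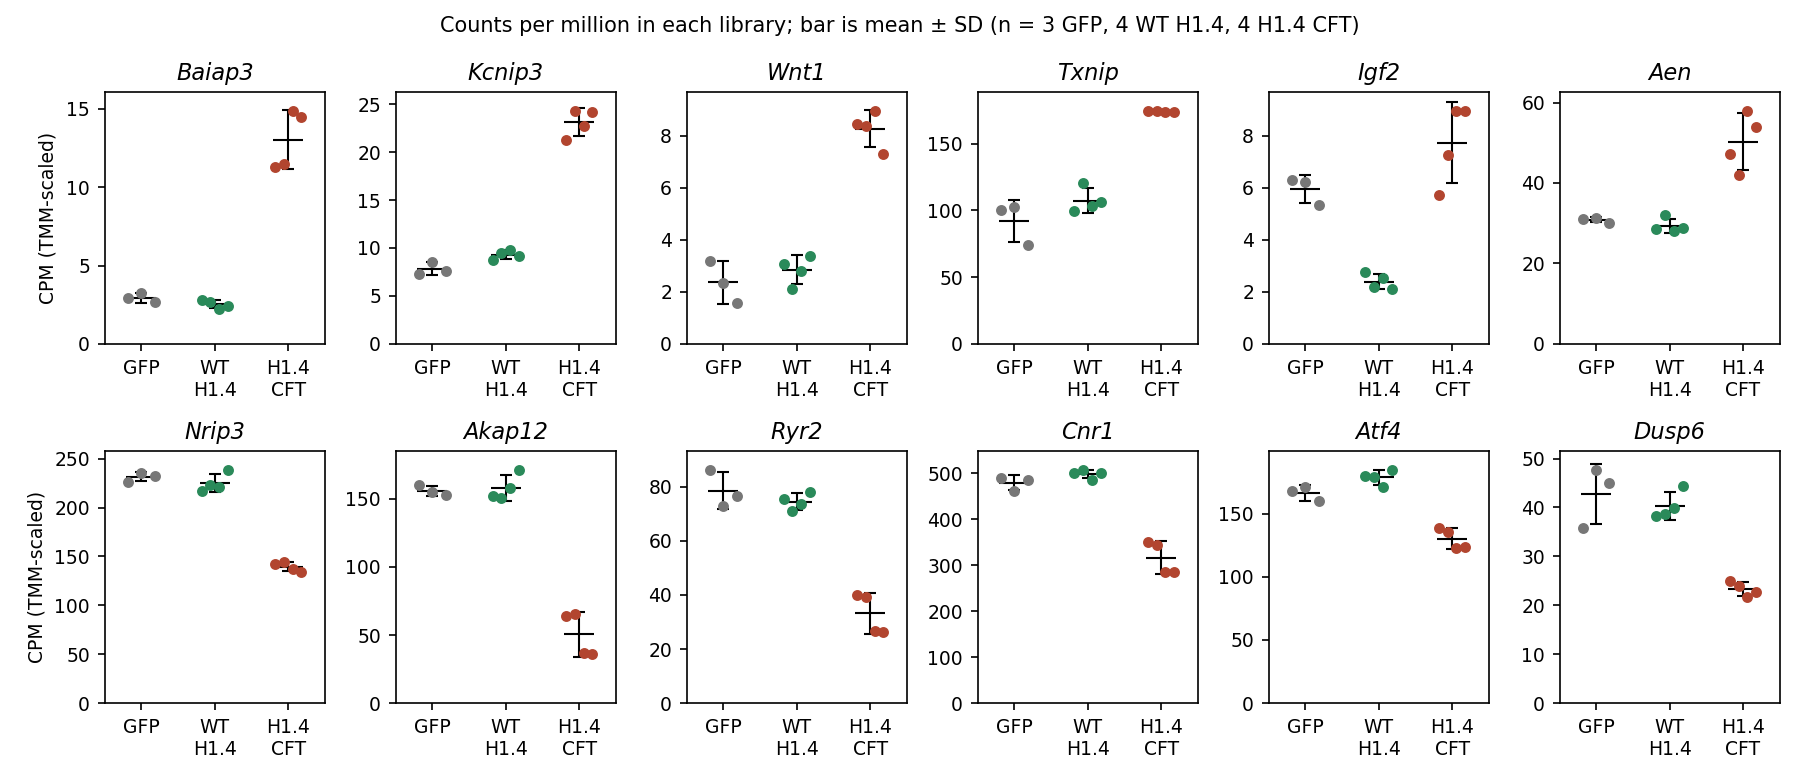
CPM of 12 genes in each library, 6 that rose (upper) and 6 that fell (lower); each dot is a library, the bar is the mean ± SD, and each vertical axis starts at 0. In Akap12, Ryr2 and Cnr1 the H1.4 CFT libraries split into a higher pair (1 and 2) and a lower pair (3 and 4), while in Kcnip3 and Txnip they lie together.

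Promoters of the clearest changes are shown because linker histones act on chromatin and CG-rich promoters differ from others in chromatin state. Each line gives the 250 bases before the annotated start in RefSeq's GRCr8 assembly (not the mRatBN7.2 build of the counts), on the coding strand, with every CG dinucleotide in capitals; the first 2 genes rose and the others fell.
Baiap3, chr10:14777517-14777766, minus strand: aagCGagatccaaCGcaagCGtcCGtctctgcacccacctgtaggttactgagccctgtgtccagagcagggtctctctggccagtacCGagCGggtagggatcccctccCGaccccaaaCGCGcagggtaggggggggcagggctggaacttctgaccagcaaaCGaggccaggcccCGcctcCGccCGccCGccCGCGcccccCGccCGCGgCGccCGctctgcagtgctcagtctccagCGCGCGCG
Kcnip3, chr3:135195411-135195660, minus strand: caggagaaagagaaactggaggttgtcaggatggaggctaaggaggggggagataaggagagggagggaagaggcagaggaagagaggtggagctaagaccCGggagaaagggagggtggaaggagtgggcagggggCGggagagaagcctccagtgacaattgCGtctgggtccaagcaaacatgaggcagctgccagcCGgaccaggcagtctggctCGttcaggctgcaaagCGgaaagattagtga
Dtx4, chr1:218917467-218917716, minus strand: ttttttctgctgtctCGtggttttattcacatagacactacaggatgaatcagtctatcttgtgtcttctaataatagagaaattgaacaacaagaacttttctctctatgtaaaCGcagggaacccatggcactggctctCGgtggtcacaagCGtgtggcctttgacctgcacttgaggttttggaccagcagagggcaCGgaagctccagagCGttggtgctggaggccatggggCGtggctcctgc
Chgb, chr3:140496462-140496711, plus strand: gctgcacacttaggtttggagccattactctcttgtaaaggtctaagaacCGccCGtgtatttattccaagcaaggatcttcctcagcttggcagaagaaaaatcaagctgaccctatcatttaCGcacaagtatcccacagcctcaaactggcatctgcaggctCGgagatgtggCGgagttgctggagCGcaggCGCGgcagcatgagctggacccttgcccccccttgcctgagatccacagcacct
H1f0, chr7:112473030-112473279, plus strand: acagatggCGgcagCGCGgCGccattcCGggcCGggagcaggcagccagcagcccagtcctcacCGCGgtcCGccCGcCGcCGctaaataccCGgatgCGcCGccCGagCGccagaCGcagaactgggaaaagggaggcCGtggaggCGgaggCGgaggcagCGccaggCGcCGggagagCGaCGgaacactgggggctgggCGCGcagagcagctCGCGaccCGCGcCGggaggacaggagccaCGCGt

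These windows held 25 CG in Baiap3, 6 in Kcnip3, 7 in Dtx4, 8 in Chgb and 35 in H1f0. Over all 33469 promoters of the table the median was 5, over the promoters of genes tested it was 16, and 92.2% held at least 1 CG on this strand (the motif reads the same on both). Of 13942 genes tested that have a proper symbol in place of a locus number, 11347 (81.4%) had a promoter in the table. In the quintile with the fewest CG, 21.7% rose and 17.1% fell, and in the quintile with the most, 16.0% rose and 28.2% fell. The level of the genes moves with CG, with a median of 8.77 CPM in the first of these quintiles and 55.6 CPM in the last. Among genes of at least 20 CPM the share that fell was 32.6% in the CG-poorest quintile, 22.2% in the middle and 31.0% in the CG-richest. Among genes under 20 CPM it went from 7.92% to 18.4%, where the median level also went from 2.68 to 9.57 CPM. By GC percent, the share that fell among genes of at least 20 CPM was 24.4% in the lowest quintile, 22.1% in the middle and 35.9% in the highest.

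Among abundant genes, with a mean of at least 50 CPM, the largest rise was in Plagl1, an imprinted zinc finger gene. Plagl1 read 70.5, 74.6, 87.5 and 86.3 CPM over CFT 1 to 4, 37.8, 45.7, 37.2 and 36.3 over WT 1 to 4 and 46.3, 38.9 and 32.04 over GFP 2 to 4 (log2 fold change 1.03 ± 0.11 SE, adjusted p = 4.6e-05). Peg10, an imprinted gene derived from a retrotransposon, rose as well (92.02 ± 10.1 CPM with H1.4 CFT and 55.9 ± 7.46 with WT H1.4; 0.72 ± 0.09). Txnip read 174, 175, 173 and 173 CPM over CFT 1 to 4, 99.5, 121, 103 and 106 over WT 1 to 4 and 100.4, 102 and 74.2 over GFP 2 to 4. Txnip, the thioredoxin-interacting protein that limits glucose uptake, was nearly the same in all 4 H1.4 CFT libraries and lay above the other groups (log2 fold change 0.70 ± 0.09 SE, adjusted p = 1.0e-04). Arrdc4, its relative in the alpha-arrestin family, rose with it (124 ± 4.37 CPM with H1.4 CFT and 72.97 ± 7.201 with WT H1.4; 0.77 ± 0.07). Hist3h2a, a histone H2A gene, rose (0.75 ± 0.07), as did the growth factor gene Mdk (0.69 ± 0.11).

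The largest fall among abundant genes was in Akap12, a scaffold for protein kinases A and C. Akap12 read 63.8, 65.3, 37.02 and 35.8 CPM over CFT 1 to 4, 152, 150.5, 158 and 171 over WT 1 to 4 and 160.0, 155 and 153 over GFP 2 to 4 (log2 fold change -1.65 ± 0.20 SE, adjusted p = 3.4e-04). The level in H1.4 CFT was lower in libraries 3 and 4 than in 1 and 2, and all 4 were below the WT H1.4 libraries. Ryr2 read 40.1, 39.3, 26.6 and 26.4 CPM over CFT 1 to 4, 75.4, 70.9, 73.4 and 78.1 over WT 1 to 4 and 86.2, 72.7 and 76.7 over GFP 2 to 4. Ryr2, the ryanodine receptor that releases calcium from the endoplasmic reticulum, showed the same split (log2 fold change -1.17 ± 0.14 SE, adjusted p = 1.6e-04). Other falls of this size were in St3gal1, a sialyltransferase (-1.27 ± 0.15), Atp2b4, a plasma membrane calcium pump (-1.26 ± 0.20), Brinp1, a neuronal inhibitor of cell division (-1.19 ± 0.11), Grin3a, a modulatory subunit of NMDA receptors (-1.12 ± 0.16), and Nts, the precursor of the peptide neurotensin (-1.12 ± 0.25). Bc1, a short noncoding RNA of dendrites, fell (-1.28 ± 0.34, adjusted p = 0.018), and without CFT 4 its adjusted p was 0.053.

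Below that level the changes were larger in proportion. Snai3, a Snail family repressor, read 4.88, 5.35, 8.97 and 8.04 CPM over CFT 1 to 4, 0.488, 0.434, 0.386 and 0.485 over WT 1 to 4 and 0.363, 0.252 and 0.421 over GFP 2 to 4 (log2 fold change 3.90 ± 0.27 SE, adjusted p = 9.0e-09). It was low in both control groups and higher in every H1.4 CFT library. Rises of the same kind were in Misp, an actin-bundling protein of the mitotic spindle (2.90 ± 0.44), Cfap44, a component of cilia and flagella (2.73 ± 0.26), Mogat2, an acyltransferase of triglyceride synthesis (2.34 ± 0.19), and Myo18b, a muscle myosin (1.85 ± 0.25). The largest falls from 2 CPM upwards were in Nrgn, the calmodulin-binding postsynaptic protein neurogranin (-1.96 ± 0.37), Slc27a2, a fatty acid transporter (-1.92 ± 0.25), and Htr2a, a serotonin receptor (-1.87 ± 0.23).

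All 3 linker histone genes with enough reads fell in neurons with H1.4 CFT, H1f2 (-1.06 ± 0.09), H1f0 (-0.60 ± 0.05) and H1f10 (-0.33 ± 0.06). DESeq2 and limma-voom also called these 3 lower. The count of rises among them, 0 by each tool, therefore adds nothing. H1f0 read 53.7, 54.6, 53.5 and 53.7 CPM over CFT 1 to 4, 83.6, 76.4, 83.4 and 84.05 over WT 1 to 4 and 91.4, 98.9 and 99.2 over GFP 2 to 4. The other 6 linker histone genes in the files did not pass the filter on low counts. Polyadenylated RNA misses most transcripts of replication-dependent histone genes, which end without a tail.

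Genes that write, read or remodel chromatin moved by small amounts and in both directions. Of 30 tested Polycomb subunits, which maintain gene silencing, 6 rose and 5 fell (median log2 fold change 0.04, against 0.02 over all genes). The share called was 36.7%, near the 35.9% over all genes tested. Cbx6, a reader of the Polycomb mark, rose (Cbx6 with 279.9, 292, 297 and 291 CPM over CFT 1 to 4, 215, 219.8, 215 and 217 over WT 1 to 4 and 220.2, 218 and 222 over GFP 2 to 4; log2 fold change 0.42 ± 0.04 SE, adjusted p = 1.3e-07), and its relative Cbx2 rose too (0.46 ± 0.09). The histone groups of Cbx6 did not overlap. Kdm2b, which brings a Polycomb complex to CG-rich DNA, fell (-0.27 ± 0.04), as did Pcgf6 (-0.34 ± 0.06). Of 28 heterochromatin and DNA methylation genes, 2 rose, the H3K9 methyltransferases Ehmt1 (0.17 ± 0.04) and Ehmt2 (0.24 ± 0.05), and 3 fell, the DNA demethylase Tet1 (-0.38 ± 0.10), the remodeller Atrx (-0.16 ± 0.05) and the silencing factor Smchd1 (-0.18 ± 0.05). In libraries 1 and 2 alone 2 of these 28 rose and 3 fell, in libraries 3 and 4 alone 11 rose and 3 fell, and with upper-quartile scaling 7 rose and 3 fell.

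The SWI/SNF remodellers, which move nucleosomes with energy from ATP, had 6 rises and 7 falls among 27 tested. With upper-quartile scaling they had 8 rises and 4 falls. Calls covered 48.1% of them, against 35.9% over all genes tested. The falls took in subunits of the neuronal complex, Dpf1 (91.2 ± 8.61 CPM with H1.4 CFT and 136 ± 5.54 with WT H1.4; -0.57 ± 0.06), Dpf3 (-0.29 ± 0.06), Actl6b (-0.20 ± 0.05) and Ss18l1 (-0.14 ± 0.05; not called without WT 4 or CFT 4, adjusted p 0.0775 and 0.0748, in libraries 1 and 2 alone, or with upper-quartile scaling), and the rises their relatives Dpf2 (0.31 ± 0.06) and Ss18 (0.42 ± 0.06), which progenitor complexes use. Smarcd1 (0.29 ± 0.04) and Smarcd2 (0.48 ± 0.08) rose as well, while the ATPase Smarca2 fell (-0.35 ± 0.09). Among 33 histone acetylation genes 6 rose and 2 fell, so that 24.2% were called. The deacetylase Hdac11 rose (0.46 ± 0.05) and Hdac9 fell (-0.33 ± 0.06), as did the corepressor Ncor1 (-0.19 ± 0.04). Of 15 cohesin and genome architecture genes 5 rose and 2 fell, so that 46.7% were called. Among the rises were the cohesin loader Mau2 (0.32 ± 0.04) and the cohesin subunit Stag1 (0.32 ± 0.06). Among the falls was the chromatin organiser Satb1 (-0.30 ± 0.06).

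Most developmental regulators of other tissues had too few reads to test. Of 74 lineage regulators in the files, 26 passed the filter, 4 rose and none fell (0 at an unadjusted p under 0.05 by edgeR, 0 by DESeq2 and 0 by limma-voom). The share called was 15.4%, against rises in 16.7% of all genes tested and in 15.9% of those under 1 CPM. The 4 were Snai3, the motor neuron and pituitary factor Lhx3, the somite and sclerotome factor Pax1 and the mesoderm factor Tbx6. Lhx3 read 3.46, 4.78, 7.44 and 5.86 CPM over CFT 1 to 4, 0.542, 0.651, 0.937 and 0.546 over WT 1 to 4 and 0.727, 0.839 and 1.56 over GFP 2 to 4 (log2 fold change 2.99 ± 0.29 SE, adjusted p = 4.3e-07). Its H1.4 CFT libraries were all above the others. Pax1 was at 0.971 ± 0.342 CPM with H1.4 CFT and 0.146 ± 0.0496 with WT H1.4 (2.64 ± 0.45), and Tbx6 at 1.19 ± 0.324 CPM with H1.4 CFT and 0.361 ± 0.163 with WT H1.4 (1.71 ± 0.39), where the rise was not called in libraries 1 and 2 alone. Only 1 of 38 Hox genes, Hoxb13, passed the filter, and it rose (2.53 ± 0.764 CPM with H1.4 CFT and 0.707 ± 0.194 with WT H1.4; 1.81 ± 0.31). The filter admits a gene that is high in one group alone, so these rises are a description of the genes that passed it. Of 30 germ line and meiosis genes tested (of 67), 4 rose, with the sperm acrosin gene Acr (1.95 ± 0.24) and Zpbp (1.25 ± 0.20) among them, and 2 fell, Spaca3 (-1.46 ± 0.40) and the centrosome and sperm tail gene Odf2 (-0.21 ± 0.04). The call of Spaca3 was lost in libraries 3 and 4 alone.

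Lists of neuronal genes leaned towards lower levels in H1.4 CFT. The summed CPM of 18 neuron markers was 6888 ± 487 with H1.4 CFT (range 6433 to 7324), 8821 ± 49.7 with WT H1.4 (8754 to 8874) and 8792 ± 118 with GFP (exact permutation p = 0.0286, adjusted p = 0.0442), and 14 of the 18 fell while 2 rose. The 2 that rose were Gad1 and Gad2. The sum is mostly that of its most abundant members, Tubb3, Stmn2, Dcx, Map2 and Gap43. This sum, the astrocyte sum and the Snap25 and Slc17a7 levels below are without TMM. Snap25 read 322, 351, 310 and 330 CPM over CFT 1 to 4 and 321, 280, 283 and 288 over WT 1 to 4. Slc17a7 read 378, 377, 324 and 324 over CFT 1 to 4 and 320, 307, 348 and 327 over WT 1 to 4. Neither was called. For the markers that fell, fewer neurons and less RNA of these genes per neuron cannot be told apart in such bulk samples. The astrocyte markers summed to 2338 ± 92.8 CPM with H1.4 CFT, 1731 ± 50.5 with WT H1.4 and 2198 ± 82.2 with GFP (exact permutation p = 0.0286, adjusted p = 0.0442). Of 11 tested astrocyte markers 7 rose and none fell, with 0 falls at an unadjusted p under 0.05 by edgeR, 0 by DESeq2 and 0 by limma-voom. The part of the marker sums in the lists that follow was not tested. Over all genes tested 19.2% fell and 16.7% rose. The share that fell was 22.4% between 20 and 100 CPM and 40.7% over 100 CPM. The lists were not matched to other genes by level, and the part of level in their falls was not tested.

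**Figure D3:**
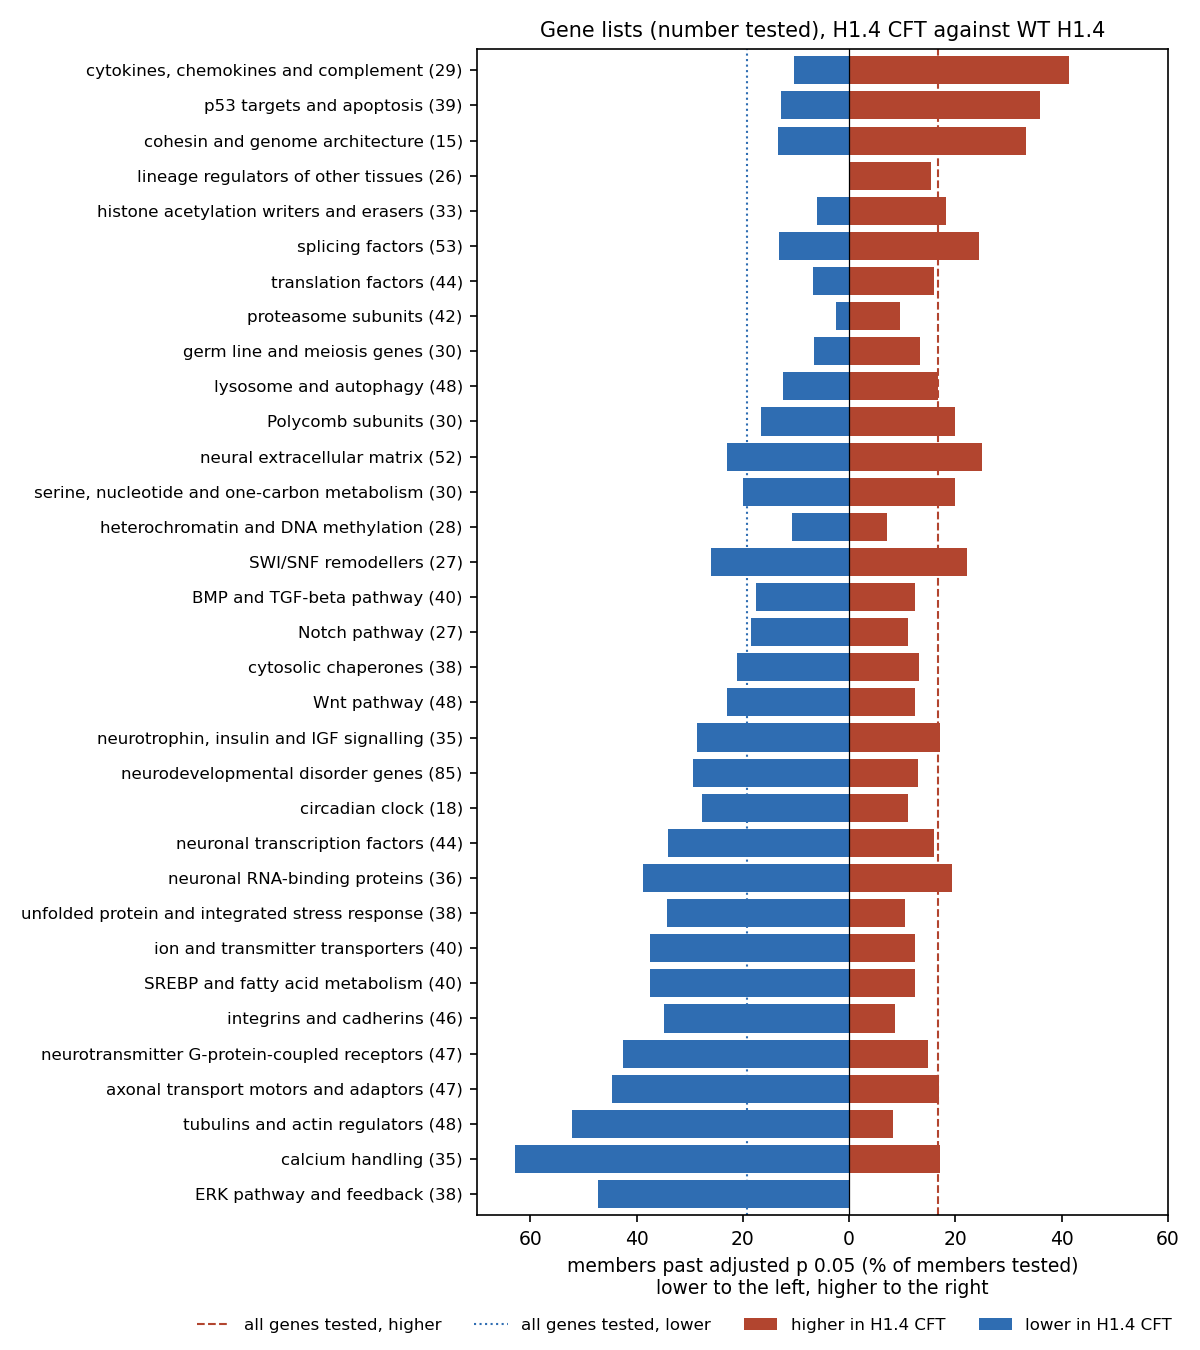
Members of each gene list called lower (blue, to the left) and higher (red, to the right) with the mutant than with WT H1.4, as a percent of the members tested, whose number is in parentheses. Dashed and dotted lines mark the shares over all genes tested (16.7% and 19.2%). Lists are ordered by the share higher minus the share lower. The ERK pathway, calcium handling and tubulin lists lie lowest, and the cytokine and p53 lists highest.

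Calcium handling had the largest share of falls among pathway and function lists with at least 5 members tested: 22 of 35 tested genes fell and 6 rose (median log2 fold change -0.28). The falls covered several steps by which a neuron moves calcium. The plasma membrane pumps Atp2b1 (-0.37 ± 0.04), Atp2b3 (-0.47 ± 0.10) and Atp2b4, the sodium-calcium exchangers Slc8a1 (-0.35 ± 0.07) and Slc8a2 (-0.49 ± 0.09), and the store release channels Itpr1 (-0.50 ± 0.06), Ryr2 and Ryr3 (-0.34 ± 0.09) were lower. Mcu read 33.5, 31.7, 29.98 and 27.8 CPM over CFT 1 to 4, 48.3, 47.1, 48.6 and 51.2 over WT 1 to 4 and 51.7, 54.1 and 54.2 over GFP 2 to 4. Mcu is the pore of the mitochondrial calcium uniporter, and its groups did not overlap (log2 fold change -0.67 ± 0.06 SE, adjusted p = 2.2e-07). The neuronal calcium sensor Hpcal1 fell further (19.3 ± 1.896 CPM with H1.4 CFT and 35.2 ± 3.29 with WT H1.4; log2 fold change -0.87 ± 0.08 SE, adjusted p = 2.3e-07). The pump Atp2b2 (0.34 ± 0.06) and the calcium binding S100a1 (0.70 ± 0.16) were among those that rose.

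Tubulins and actin regulators had 25 falls and 4 rises among 48 tested (median -0.12). Of 12 tubulin genes 10 fell and none rose, led by the abundant isotypes. Tuba1a read 3489.9, 3533, 3019 and 2945 CPM over CFT 1 to 4, 4625, 4663, 4567 and 4680.1 over WT 1 to 4 and 4496, 4519.6 and 4471 over GFP 2 to 4 (log2 fold change -0.51 ± 0.05 SE, adjusted p = 5.6e-07). All H1.4 CFT libraries were below the others, and libraries 3 and 4 were the lowest. Tubb5 (1734 ± 69.2 CPM with H1.4 CFT and 2266 ± 58.2 with WT H1.4; -0.39 ± 0.04), the neuronal isotype Tubb3 (-0.43 ± 0.05), Tubb4a (-0.47 ± 0.05) and Tuba4a (-0.76 ± 0.12) also fell. The kinases Pak1 (-0.44 ± 0.05) and Pak3 (-0.53 ± 0.05) and their activator Rac3 (-0.53 ± 0.07), which set actin turnover in spines and growth cones, were lower. Of 47 motors and adaptors of axonal transport 21 fell and 8 rose (median -0.10), where 19.2% of all genes tested fell and 16.7% rose. The kinesin-II subunits Kif3a (-0.27 ± 0.04), Kif3b (-0.47 ± 0.06) and Kif3c (-0.31 ± 0.05), the dynein chain Dync1i1 (-0.46 ± 0.07) and the dynein regulator Ndel1 (-0.32 ± 0.04) were lower, whereas the widely expressed kinesin Kif1c (0.29 ± 0.05) was higher. Tubulin isotypes are near-identical in sequence, so that reads could be shared among them.

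Receptors for transmitters and neuropeptides that couple to G proteins fell in 20 and rose in 7 of 47 tested (median -0.35). Cnr1 read 351, 344, 285 and 285 CPM over CFT 1 to 4, 499, 507, 486 and 500.1 over WT 1 to 4 and 490.2, 460.4 and 486 over GFP 2 to 4. Cnr1, the cannabinoid receptor of nerve terminals, fell, with no overlap between the histone groups (log2 fold change -0.66 ± 0.06 SE, adjusted p = 7.3e-07). The somatostatin receptors Sstr2 (-0.97 ± 0.12), Sstr3 (-1.13 ± 0.28) and Sstr4 (-0.67 ± 0.12) were lower. In libraries 1 and 2 alone Sstr3 (adjusted p 0.0644) and Sstr4 (log2 fold change -0.308, adjusted p 0.0809) were not called. Also lower were the tachykinin receptor Tacr3 (3.16 ± 0.4104 CPM with H1.4 CFT and 7.72 ± 0.569 with WT H1.4; -1.28 ± 0.14), the cholecystokinin receptor Cckbr (-1.52 ± 0.29) and the neurotensin receptor Ntsr1 (-1.11 ± 0.21). Ntsr2, a second neurotensin receptor, which is found on astrocytes, went the other way. Ntsr2 read 10.9, 9.46, 10.96 and 10.9 CPM over CFT 1 to 4, 4.44, 5.35, 5.07 and 5.04 over WT 1 to 4 and 7.92, 6.38 and 6.43 over GFP 2 to 4 (log2 fold change 1.09 ± 0.12 SE, adjusted p = 1.3e-06). The lysophospholipid receptors Lpar1 (1.13 ± 0.26; adjusted p 0.239 in libraries 1 and 2 alone), S1pr1 (0.25 ± 0.07) and S1pr3 (0.52 ± 0.09) also rose. Chrm4, which rose (0.48 ± 0.09), overlaps Mdk in the gene table.

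In the list of ion and transmitter transporters 15 of 40 tested genes fell and 5 rose (median -0.08). The list also holds Gad1 and Gad2, which are enzymes and not transporters. Among the rises were Gad1 (0.42 ± 0.10), Gad2 (0.41 ± 0.13) and Slc32a1 (0.23 ± 0.08). These 3 genes make GABA or load it into vesicles. None of them was called in libraries 1 and 2 alone (adjusted p 0.103 for Gad1, 0.288 for Gad2 and 0.0752 for Slc32a1), and Slc32a1 was not called in libraries 3 and 4 alone either (0.0716). Gad2 lost its call without WT 2, WT 4, CFT 3 or CFT 4 (adjusted p 0.0514 to 0.0842) and Slc32a1 without WT 1, WT 3 or CFT 3 (0.0526 to 0.082). Gad1 read 34.3, 36.5, 45.6 and 41.1 CPM over CFT 1 to 4, 33.4, 28.6, 27.5 and 28.3 over WT 1 to 4 and 35.2, 43.2 and 44.7 over GFP 2 to 4. The GFP libraries of Gad1 overlapped those of H1.4 CFT and lay above all WT H1.4 libraries, with a difference of H1.4 CFT to GFP of -0.06 (adjusted p = 0.7). Slc12a5, the chloride exporter KCC2 that makes GABA inhibitory in mature neurons, fell (95.7 ± 18.4 CPM with H1.4 CFT and 157 ± 8.25 with WT H1.4; log2 fold change -0.71 ± 0.12 SE, adjusted p = 0.0016), and so did the vesicular glutamate transporter Slc17a6 (-0.47 ± 0.09). The amino acid carriers Slc7a5 (-0.28 ± 0.04), Slc3a2 (-0.21 ± 0.06) and Slc38a1 (-0.26 ± 0.04) were lower as well. In libraries 1 and 2 alone 9 of this list rose and 13 fell, and in libraries 3 and 4 alone 4 rose and 24 fell.

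Neuronal transcription factors fell more often than they rose. Of 44 tested, 15 fell and 7 rose; the median was -0.00254 and became 0.0381 with upper-quartile scaling. Factors of excitatory projection neurons were among the falls: Neurod6 (227 ± 20.5 CPM with H1.4 CFT and 317 ± 9.93 with WT H1.4; log2 fold change -0.48 ± 0.05 SE, adjusted p = 2.5e-06), Fezf2 (-0.55 ± 0.07), Bcl11b (-0.51 ± 0.07) and Prox1 of the dentate gyrus (-0.34 ± 0.09). Dlx2, which specifies interneurons, rose (4.13 ± 0.607 CPM with H1.4 CFT and 2.62 ± 0.276 with WT H1.4; log2 fold change 0.66 ± 0.17 SE, adjusted p = 0.0051; 0.089 in libraries 1 and 2 alone). Among 36 neuronal RNA-binding proteins 14 fell and 7 rose (median -0.06). Rbfox1 (-0.50 ± 0.07), Rbfox2 (-0.39 ± 0.05) and Rbfox3 (-0.35 ± 0.05), splicing regulators of neurons, and the mRNA stabiliser Elavl4 (-0.52 ± 0.07) fell. Srrm3, which promotes the use of neuronal microexons, rose (log2 fold change 0.51 ± 0.05 SE, adjusted p = 5.6e-07). Srrm3 read 108, 102, 111 and 118 CPM over CFT 1 to 4 and 82.3, 76.8, 73.9 and 74.5 over WT 1 to 4. It read 75.9, 71.6 and 68.7 over GFP 2 to 4. Its histone groups did not overlap.

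Of 85 genes known for neurodevelopmental disorders, 25 fell and 11 rose (median -0.05). With upper-quartile scaling 19 fell and 17 rose. Calls covered 42.4% of them, against 35.9% over all genes tested. The chromatin remodeller Chd3 fell most clearly (Chd3 with 539.9, 537, 508 and 489.5 CPM over CFT 1 to 4, 729.6, 711, 762 and 735 over WT 1 to 4 and 702, 649 and 697 over GFP 2 to 4; log2 fold change -0.50 ± 0.04 SE, adjusted p = 1.1e-07). All 4 H1.4 CFT libraries were below the other groups. Among the other falls were the sodium channels Scn1a (-0.54 ± 0.10) and Scn2a (-0.65 ± 0.09), the NMDA receptor subunit Grin2b (-0.55 ± 0.08) and the scaffold Shank1 (-0.45 ± 0.07). The largest of the 11 rises was in the chromatin gene Chd2 (0.23 ± 0.04), and Kmt5b rose by 0.19.

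No gene of the ERK pathway rose. Of 38 tested, 18 fell (median -0.16) and 0 rose, and 0 were higher at an unadjusted p under 0.05 by edgeR, 0 by DESeq2 and 0 by limma-voom; in the pairs fitted alone, 2 rose in libraries 1 and 2 and 1 in libraries 3 and 4. Phosphatases and inhibitors that ERK itself induces were among the falls, with 7 of 16 Dusp, Spry and Spred genes lower. Dusp6 read 25.03, 23.9, 21.7 and 22.7 CPM over CFT 1 to 4, 38.3, 38.6, 39.97 and 44.4 over WT 1 to 4 and 35.9, 47.7 and 44.9 over GFP 2 to 4. Dusp6, the ERK-specific phosphatase, had histone groups that did not overlap (log2 fold change -0.79 ± 0.08 SE, adjusted p = 7.0e-07). Dusp5 (-0.81 ± 0.20; -0.252 with an adjusted p of 0.225 in libraries 1 and 2 alone) and Spry4 (-0.44 ± 0.08) were lower, as were the ETS factors Etv1 (-0.40 ± 0.05), Etv4 (-0.29 ± 0.07) and Etv5 (-0.30 ± 0.04), which ERK activates. The downstream kinase Rps6ka2 (30.6 ± 4.78 CPM with H1.4 CFT and 57.2 ± 4.26 with WT H1.4; -0.90 ± 0.10) and the Ras exchange factor Rasgrf2 (-1.02 ± 0.14) fell by larger amounts.

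Neurotrophin, insulin and IGF signalling gave 10 falls and 6 rises among 35 tested, with a median of -0.02 that became 0.02 with upper-quartile scaling. Calls covered 45.7% of them, against 35.9% over all genes tested. The ligand Igf2 rose (log2 fold change 1.68 ± 0.17 SE, adjusted p = 5.9e-07). The receptor Insr (55.3 ± 6.25 CPM with H1.4 CFT and 67.8 ± 5.78 with WT H1.4; -0.30 ± 0.08) and the translation brake Eif4ebp1 (-0.86 ± 0.22) fell, and the transcription factors Foxo1 (0.27 ± 0.05) and Foxo3 (0.32 ± 0.08) rose. Igf2 read 5.73, 7.26, 8.97 and 8.97 CPM over CFT 1 to 4, 2.76, 2.17, 2.54 and 2.12 over WT 1 to 4 and 6.32, 6.21 and 5.35 over GFP 2 to 4. The WT H1.4 libraries were below both other groups, and against GFP the H1.4 CFT difference was 0.38 with an adjusted p of 0.094.

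In the Wnt list 6 of 48 tested genes rose and 11 fell (median -0.00334), and with upper-quartile scaling 10 rose and 9 fell (median 0.0377). The share called was 35.4%, near the 35.9% over all genes tested. The ligands Wnt1 and Wnt10b rose. Wnt1 read 8.46, 8.39, 8.97 and 7.31 CPM over CFT 1 to 4, 3.09, 2.098, 2.81 and 3.398 over WT 1 to 4 and 3.197, 2.35 and 1.56 over GFP 2 to 4 (log2 fold change 1.53 ± 0.18 SE, adjusted p = 2.8e-06). Wnt10b, its neighbour on the chromosome, rose by a like amount (1.61 ± 0.32). The receptors Fzd4 (-1.04 ± 0.17), Fzd7 (-0.52 ± 0.11) and Ror2 (-0.74 ± 0.10) and the destruction complex scaffold Apc (-0.35 ± 0.05) fell. Wnt1 and Wnt10b both overlap Tuba1c in the gene table.

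Notch and bone morphogenetic pathways, which keep progenitors undifferentiated and favour glia, had calls in both directions. Of 27 tested Notch genes 3 rose and 5 fell, and with upper-quartile scaling 7 rose and 4 fell; in libraries 1 and 2 alone 6 rose and 2 fell, and in libraries 3 and 4 alone 5 rose and 6 fell. The shares over all genes tested were 16.7% and 19.2%. The receptors Notch1 (0.29 ± 0.07) and Notch2 (0.29 ± 0.05) and the glycosyltransferase Mfng (0.73 ± 0.14) rose, and the feedback inhibitor Nrarp (-0.33 ± 0.09; adjusted p 0.224 in libraries 1 and 2 alone) and the neurogenic factor Hes6 (-0.30 ± 0.05) fell. Of 40 tested genes of the BMP and TGF-beta pathway 5 rose and 7 fell, and with upper-quartile scaling 9 rose and 6 fell. The secreted BMP antagonist Grem1 fell (2.61 ± 0.455 CPM with H1.4 CFT and 4.74 ± 0.835 with WT H1.4; log2 fold change -0.85 ± 0.18 SE, adjusted p = 0.0013). The BMP target Id2 (0.33 ± 0.06) rose.

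Of 18 clock genes 2 rose and 5 fell. Calls covered 38.9% of them, near the 35.9% over all genes tested. The activator Npas2 fell by the largest amount (4.15 ± 1.62 CPM with H1.4 CFT and 9.13 ± 0.665 with WT H1.4; log2 fold change -1.14 ± 0.20 SE, adjusted p = 4.0e-04), with a change of -0.63 in libraries 1 and 2 and -1.81 in libraries 3 and 4. The repressor Cry2 fell (-0.43 ± 0.06), while the nuclear receptor Rora (0.52 ± 0.15) rose. Of 30 tested genes of serine, nucleotide and one-carbon metabolism 6 rose and 6 fell, and with upper-quartile scaling 9 rose and 5 fell. The purine synthesis enzyme Gart (102 ± 2.59 CPM with H1.4 CFT and 77.5 ± 2.36 with WT H1.4; log2 fold change 0.39 ± 0.04 SE, adjusted p = 2.2e-06) and the glycine cleavage enzyme Gldc (0.33 ± 0.08) rose, and the mitochondrial folate enzymes Mthfd1l (-0.27 ± 0.07) and Mthfd2, described with the stress response, fell.

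Targets of p53 and apoptosis genes leaned upwards, with 14 rises and 5 falls among 39 tested (median 0.12). Calls covered 48.7% of them, against 35.9% over all genes tested, where 16.7% rose and 19.2% fell. Aen read 47.2, 42.05, 57.98 and 53.9 CPM over CFT 1 to 4, 28.5, 31.97, 27.95 and 28.7 over WT 1 to 4 and 31.02, 31.4 and 30.1 over GFP 2 to 4. Aen, a nuclease that p53 induces, had histone groups that did not overlap (log2 fold change 0.78 ± 0.08 SE, adjusted p = 1.2e-06). The BH3-only genes Bbc3 (41.03 ± 2.81 CPM with H1.4 CFT and 29.2 ± 2.22 with WT H1.4; 0.49 ± 0.08) and Bcl2l11 (0.43 ± 0.09), the effector Bax (0.33 ± 0.06) and the cell cycle inhibitor Cdkn1a (0.49 ± 0.12; 0.138 with an adjusted p of 0.254 in libraries 1 and 2 alone) rose. Tp53inp1, a stress-induced partner of p53, was at 79.1 ± 16.3 CPM with H1.4 CFT and 49.2 ± 3.43 with WT H1.4 (0.69 ± 0.13). Among the falls were Plk2 (-0.47 ± 0.06), which neuronal activity also induces, Rrm2b (-0.27 ± 0.07; adjusted p 0.0971 in libraries 1 and 2 alone), Bid and Ccng1.

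The unfolded protein and integrated stress response fell in 13 and rose in 4 of 38 tested genes (median -0.11). Atf4 read 139, 135, 123 and 124 CPM over CFT 1 to 4, 180.0, 179, 171 and 185 over WT 1 to 4 and 168, 171 and 159.7 over GFP 2 to 4. Atf4, the transcription factor at the centre of this response, was lower in all H1.4 CFT libraries (log2 fold change -0.46 ± 0.05 SE, adjusted p = 6.6e-07). Its known targets Chac1, a glutathione-degrading enzyme (5.66 ± 0.918 CPM with H1.4 CFT and 12.1 ± 0.971 with WT H1.4; -1.09 ± 0.14), and Mthfd2, a mitochondrial folate enzyme (-0.71 ± 0.08), fell as well. The 4 rises took in the reticulum chaperones Calr (0.32 ± 0.05) and Sdf2l1 (0.54 ± 0.13; adjusted p 0.0932 in libraries 1 and 2 alone). Cytosolic chaperones had 8 falls and 5 rises of 38, with 9 falls and 3 rises in libraries 1 and 2 alone, 8 falls and 11 rises in libraries 3 and 4 alone, and 5 falls and 10 rises with upper-quartile scaling. The share of chaperones called was 34.2%, near the 35.9% over all genes tested. The Hsp110 chaperone Hsph1 (-0.49 ± 0.05) and Hspa12a (-0.47 ± 0.07) fell, and the small heat shock proteins Hspb1 (1.14 ± 0.21), Hspb8 (0.43 ± 0.13) and Cryab (0.68 ± 0.19; adjusted p 0.0638 in libraries 1 and 2 alone), which glia also express, rose.

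Of the general machinery, proteasome subunits (11.9%) and translation factors (22.7%) were called less often than all genes tested (35.9%). Splicing factors were called in 37.7%. Of 42 proteasome subunits 4 rose and 1 fell; the largest rise was in the immunoproteasome subunit Psmb8 (2.36 ± 0.453 CPM with H1.4 CFT and 0.865 ± 0.411 with WT H1.4; 1.47 ± 0.32). Lysosome and autophagy genes had 8 rises and 6 falls of 48, a share called of 29.2% against 35.9% over all genes tested. Among the autophagosome proteins, Map1lc3a (-0.40 ± 0.05) and Gabarapl1 (-0.32 ± 0.05) fell while Map1lc3b (0.22 ± 0.04) rose. In libraries 1 and 2 alone 9 translation factors rose and 6 fell, and in libraries 3 and 4 alone 9 rose and 10 fell. Over all libraries translation factors gave 7 rises and 3 falls of 44, none beyond 1.25-fold among Eif1 (-0.23 ± 0.04), Eif3b (0.19 ± 0.04) and Eef1g (-0.15 ± 0.04). Splicing factors rose in 13 and fell in 7 of 53 (median 0.07), led by Srrm1 (142 ± 8.35 CPM with H1.4 CFT and 111 ± 4.33 with WT H1.4; 0.36 ± 0.05), Tra2a (0.31 ± 0.05) and the U1 component Snrnp70 (0.29 ± 0.05). This list differed between the pairs, with 5 rises and 10 falls in libraries 1 and 2 and 30 rises and 2 falls in libraries 3 and 4.

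Adhesion genes fell more often than they rose, with 16 falls and 4 rises among 46 integrins and cadherins (median -0.11). Cdh8 read 127, 129, 115 and 115 CPM over CFT 1 to 4, 172, 175, 168 and 173 over WT 1 to 4 and 169, 156 and 161 over GFP 2 to 4. Cdh8, a cadherin of glutamatergic synapses, had histone groups that did not overlap (log2 fold change -0.51 ± 0.05 SE, adjusted p = 2.1e-07). The neural cadherin Cdh2 (-0.24 ± 0.04), Fat3, which shapes dendrites (-0.55 ± 0.07), and the integrin Itga8 (-0.75 ± 0.14) fell, while Fat1 (0.24 ± 0.04) and Fat2 (1.58 ± 0.41) rose. Extracellular matrix genes were even, with 13 rises and 12 falls among 52. There were 16 rises and 13 falls in libraries 1 and 2 alone, and 13 rises and 15 falls in libraries 3 and 4 alone. Calls covered 48.1% of the matrix genes and 43.5% of the integrins and cadherins, against 35.9% over all genes tested. The perineuronal net proteoglycan Acan (-1.46 ± 0.24), the synapse organiser Agrn (357 ± 31.2 CPM with H1.4 CFT and 479 ± 17.1 with WT H1.4; -0.42 ± 0.05), Cspg5 (-0.47 ± 0.06) and Sdc3 (-0.37 ± 0.05) fell. The astrocytic lectican Bcan (0.26 ± 0.07), fibronectin Fn1 (0.36 ± 0.06), the laminin chain Lama1 (0.90 ± 0.18) and the protease inhibitor Timp3 (0.33 ± 0.05) rose.

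Cytokine, chemokine and complement genes had the largest share of rises among pathway and function lists with at least 5 members tested: 12 of 29 rose and 3 fell (median 0.26), and 17 of the 46 listed did not pass the filter. The complement components C2, C3 (1.12 ± 0.34; adjusted p 0.0509 without WT 4, and 0.388 with an adjusted p of 0.525 in libraries 1 and 2 alone), C1r (0.53 ± 0.14) and Cfb (0.65 ± 0.12) rose. C2 read 10.3, 13.7, 12.5 and 12.2 CPM over CFT 1 to 4, 4.23, 6.37, 5.02 and 5.83 over WT 1 to 4 and 6.61, 5.62 and 5.65 over GFP 2 to 4 (log2 fold change 1.19 ± 0.13 SE, adjusted p = 1.7e-06). Every H1.4 CFT library was above the others. The oncostatin M receptor Osmr (1.22 ± 0.24) and the transcription factors Stat3 (0.39 ± 0.04) and Nfkb2 (0.56 ± 0.15) rose, whereas the neuronal chemokine Cx3cl1 (35.2 ± 2.31 CPM with H1.4 CFT and 53.05 ± 2.87 with WT H1.4; -0.59 ± 0.06) and the cytokine receptor chain Il6st (-0.28 ± 0.05) fell. The microglia and macrophage markers summed to 49.8 ± 8.50 CPM with H1.4 CFT and 55.0 ± 6.58 with WT H1.4 (exact permutation p = 0.314, adjusted p = 0.381), and their defining member Cx3cr1 had no read in any WT library and in 3 of the 4 CFT libraries. Astrocyte markers, given above, were higher in H1.4 CFT, and their part in these rises was not tested.

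Lipid synthesis leaned downwards: 15 of 40 genes of SREBP and fatty acid metabolism fell and 5 rose (median -0.11). The rate-limiting enzyme Acaca (219 ± 27.5 CPM with H1.4 CFT and 334 ± 12.8 with WT H1.4; -0.61 ± 0.07), Fasn (-0.36 ± 0.08) and the acyl-CoA ligases Acsl3 (-0.51 ± 0.07) and Acsl4 (-0.85 ± 0.12) fell. Apoe read 1117, 1080.5, 1231 and 1238 CPM over CFT 1 to 4, 723, 771, 884 and 869 over WT 1 to 4 and 869, 953 and 939 over GFP 2 to 4. Apoe, the lipid carrier that astrocytes secrete, rose (log2 fold change 0.52 ± 0.06 SE, adjusted p = 1.7e-05). The H1.4 CFT libraries of Apoe were all above the other groups.

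For some genes the WT H1.4 group stood apart from both other groups. Gfap read 509.8, 514, 601 and 602 CPM over CFT 1 to 4, 292, 329, 302 and 296 over WT 1 to 4 and 489.6, 569.8 and 551 over GFP 2 to 4. Gfap, the intermediate filament of astrocytes, rose against WT H1.4 (log2 fold change 0.87 ± 0.06 SE, adjusted p = 2.1e-07), but against GFP the difference was 0.05 (adjusted p = 0.61). Without TMM, as in the marker sums, Gfap read 632 CPM in CFT 3 and 286 CPM in WT 1. Stat3 was at 118 ± 4.02 CPM with H1.4 CFT and 89.98 ± 2.42 with WT H1.4 and 110.5 ± 3.35 CPM in GFP, and its difference to GFP was 0.10 (adjusted p = 0.13). The clock repressor Nr1d1 was at 274 ± 28.3 CPM with H1.4 CFT and 334 ± 11.9 with WT H1.4 and 274 ± 22.4 CPM in GFP, with a difference to GFP of -0.00 (adjusted p = 0.98). Over all genes tested 5098 (29.5%) were called between H1.4 CFT and GFP, and 163 (0.943%) between WT H1.4 and GFP. These comparisons share libraries with the one described here and are not independent of it.

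The size of the H1.4 CFT effect differed between the number pairs for 1760 genes (10.2%), by the edgeR test of the interaction of group with pair. That test measures the spread between the 2 libraries of a pair within each histone group. Each pair occurs once, so its p-values do not measure how a difference between pairs would repeat. Of the 1760 genes 1137 were lower in H1.4 CFT in both pairs, 170 were higher in both and 453 had opposite signs. In 1595 the change was larger in libraries 3 and 4. In the fits of each pair alone, 3635 genes were called in the same direction in both pairs and 40 in opposite directions. Akap12 changed by -1.23 in libraries 1 and 2 and -2.18 in libraries 3 and 4 (difference -0.95 ± 0.07 SE, adjusted p = 1.2e-15). Ddn, the dendritic protein dendrin, changed by -0.59 in libraries 1 and 2 and -1.56 in libraries 3 and 4 (adjusted p of the difference 6.6e-15). The sterol synthesis gene Acat2 differed in the same way and changed by -0.56 in libraries 1 and 2 and -1.17 in libraries 3 and 4 (adjusted p 1.8e-14). Acat2 read 289, 274, 194 and 190.1 CPM over CFT 1 to 4, 414, 417, 419 and 443 over WT 1 to 4 and 415, 396 and 385 over GFP 2 to 4. Its level was lowest in CFT 3 and CFT 4, and the WT H1.4 libraries did not show this drop.

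Gpi, a glycolytic enzyme, was the gene with the smallest p of the difference: it changed by -0.26 in libraries 1 and 2 and -1.01 in libraries 3 and 4 (adjusted p 1.2e-17). Its overall fall was -0.59 ± 0.19 with an adjusted p of 0.042, and it missed the threshold when any of WT 1, WT 2, WT 3, WT 4, CFT 3, CFT 4 or GFP 3 was left out (adjusted p from 0.0591 to 0.0965). The sterol enzyme Lss showed the same pattern (-0.22 in libraries 1 and 2 and -0.89 in libraries 3 and 4), with an overall change of -0.51 ± 0.18 that missed the threshold (adjusted p = 0.051; 0.0309 with the replicate block, 0.0183 without CFT 1 and 0.0333 without CFT 2). Among the lists, the difference between pairs was called for 19 of 48 tubulins and actin regulators and 18 of 40 genes of the transporter list. It was called for 15 of 35 calcium handling genes, 15 of 40 lipid genes and 13 of 53 splicing factors. In all of the tubulin, actin and calcium members the effect was more negative in libraries 3 and 4, and in none of the splicing factors. What the numbers mark is not given in the labels, and a difference between cultures, dates or construct levels cannot be told apart.

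**Figure D4:**
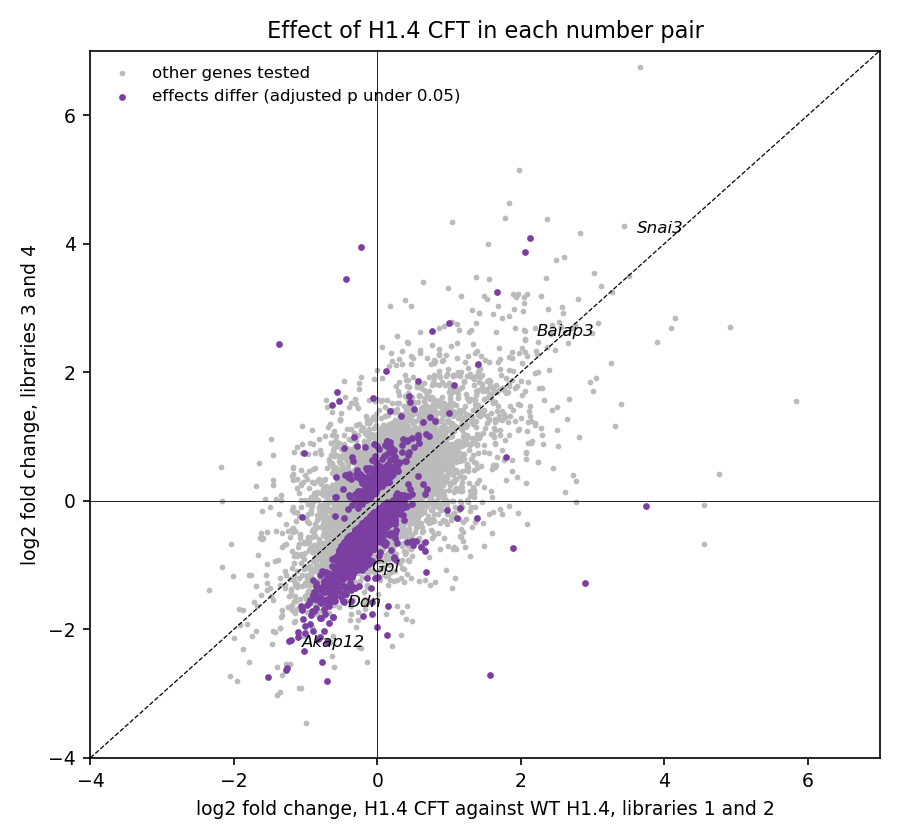
Log2 fold change of each gene tested, H1.4 CFT against WT H1.4, in libraries 1 and 2 (horizontal) and in libraries 3 and 4 (vertical). Purple dots are the 1760 genes whose effect differed between the pairs; the dashed line marks equal effects. Most purple dots lie below the line on the falling side, Akap12, Ddn and Gpi among them.

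Markers of other cell types were checked across the comparison, with sums and levels without TMM. Oligodendrocyte lineage markers summed to 532 ± 42.0 CPM with H1.4 CFT and 507 ± 43.0 with WT H1.4 (exact permutation p = 0.4, adjusted p = 0.453); by edgeR none of 10 tested members was called, 1 was higher and 1 lower at an unadjusted p under 0.05, and DESeq2 and limma-voom each called 1 lower. Ependymal and choroid plexus markers were at 36.8 ± 6.50 against 21.1 ± 1.61 CPM, endothelial markers at 14.03 ± 0.927 against 11.4 ± 0.807 CPM and erythroid markers at 8.303 ± 0.516 against 5.92 ± 0.325 CPM (each exact permutation p = 0.0286, adjusted p = 0.0442). Only 1 of 6 tested endothelial markers rose (median log2 fold change -0.136). In that sum Tek read 3.07, 3.32, 3.34 and 4.87 CPM over CFT 1 to 4 and 1.17, 0.915, 0.861 and 1.24 over WT 1 to 4. Most of the erythroid sum was Ahsp (6.25, 7.89, 6.87 and 6.84 CPM over CFT 1 to 4), and the 1 erythroid marker tested was not called. Dividing cell markers were at 271 ± 44.6 against 225 ± 7.31 CPM, and mural cell and fibroblast markers at 141 ± 10.3 against 123 ± 9.24 CPM (both exact permutation p = 0.0571, adjusted p = 0.0747). No marker of any list was at 0 in all libraries, and the endothelial marker Cdh5 read at most 0.179 CPM in any library. Their part in the results was not tested.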

How the data were processed

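RNA of 11 libraries was sequenced. The authors deposited raw counts by gene symbol, made, per the submitters' processing notes, with STAR 2.7.2b, HTSeq 0.10.0 and the mRatBN7.2 build. The annotation release and strand setting are not given in the sources used here, so overlapping genes cannot be told apart: 81 of the 218 named genes found in the RefSeq GRCr8 table overlap another gene, among them Wnt1, Wnt10b and Tuba1a (Tuba1c), C2 (Zbtb12), Tbx6 (Ppp4c), Acr (Shank3), Bc1 (Lto1), Nr1d1 (Thra) and Mdk (Chrm4). The 5 summary entries of each file were left out of library sizes; reads in no feature were 45.2% to 46.0% of the reads.

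The test was edgeR's (version 4.0.16, in R 4.3.3) on all 11 libraries, with TMM scaling, filterByExpr (minimum count 10, total 15), group term, robust quasi-likelihood test, Benjamini-Hochberg adjustment over 17294 genes, threshold 0.05. The biological coefficient of variation was 7.02%, with 8 residual degrees of freedom. The same script was tested on simulated data. Alternatives used DESeq2 1.42.0 and limma 3.58.1 (voom), RLE and upper-quartile scaling, other filters, the replicate block, only the 8 libraries, each number pair alone, and each library left out. Measures of whole libraries were tested by exact permutation of the 8 libraries without regard to the number pairs, two-sided, with adjustment over 17 of them.

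Replicate numbers deviated together between the histone groups by pair. Residual correlations over genes were 0.149, 0.174, 0.192 and 0.142 for equal numbers 1 to 4. Those of neighbours were similar, 0.189 for CFT 1 with WT 2, 0.147 for CFT 2 with WT 1, 0.159 for CFT 3 with WT 4 and 0.168 for CFT 4 with WT 3. Between the pairs they ran from -0.185 to -0.131. The values show 2 pairs and do not show a match by single number.

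The 35 gene lists (1442 symbols, 5 matched by synonym, 5 not matched) and the members were chosen with earlier results of these data known. Genes were named by rule: linker histones, the 12 largest rises and falls at a mean of at least 2 CPM and 10 each at 50 CPM, the 8 smallest p, up to 4 members of each list and 6 genes by the interaction. Not all of these are printed, and the other list members and Dtx4 and Chgb, which head the falls with a promoter in the table, were named after their values were seen.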

Additional observations from a re-analysis of the deposited data

Results flagged for a closer look

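A single library stood apart from the other 3 of its group, by the Dixon criterion at the 95% level, in 9 of 452 groups of values checked (1 gene or library measure in 1 group each). Chance gives about 1 in 20. The values that stood apart were 443 CPM of Acat2 in WT 4, 268 CPM of Atrx in CFT 3, 80.9 CPM of Etv5 in WT 3, 76.4 CPM of H1f0 in WT 2, 42.6 CPM of Hist3h2a in WT 1, 40.1 CPM of Hpcal1 in WT 4, 9.46 CPM of Ntsr2 in CFT 2, 43.8 CPM of Pcgf6 in WT 2 and 45.7 CPM of Plagl1 in WT 2.

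The effect of H1.4 CFT differed between libraries 1 and 2 and libraries 3 and 4 for 1760 genes, by edgeR's test of the interaction at an adjusted p under 0.05. As said above, that test rests on the spread within pairs, and no pair was repeated. The values here are log2 differences, the effect in libraries 3 and 4 minus that in libraries 1 and 2, for the genes named above. They were negative, in order of size, as follows. The difference was -1.36 for Htr2a, -1.21 for Nrgn, -1.18 for Npas2, -1.07 for Dusp5, -0.971 for Ddn, -0.949 for Akap12, -0.812 for Nts, -0.804 for Atp2b4, -0.755 for Grin3a, -0.754 for Gpi, -0.731 for Sstr4 and -0.676 for Lss. Next came differences of -0.643 for St3gal1, -0.632 for Ntsr1, -0.629 for Ryr2, -0.626 for Rasgrf2, -0.603 for Acat2, -0.596 for Slc12a5, -0.577 for Brinp1, -0.575 for Tuba4a, -0.514 for Acsl4, -0.485 for Scn1a, -0.481 for Grin2b and -0.473 for Atp2b3. These were followed by -0.472 for Bcl11b, -0.454 for Slc8a2, -0.453 for Fasn, -0.417 for Rbfox1, -0.412 for Hspa12a, -0.398 for Scn2a, -0.393 for Fat3, -0.378 for Nrarp, -0.377 for Shank1, -0.374 for Acaca, -0.345 for Slc8a1 and -0.340 for Rac3. Smaller differences were -0.331 for Dync1i1, -0.289 for Rbfox3, -0.288 for Fezf2, -0.286 for Tubb4a, -0.278 for Acsl3, -0.274 for Hdac9, -0.273 for Agrn, -0.271 for H1f10, -0.264 for Cspg5, -0.258 for Pak3, -0.256 for Cnr1 and -0.256 for Map1lc3a. After these stood -0.250 for Sdc3, -0.248 for Tubb3, -0.245 for Kif3c, -0.236 for Dtx4, -0.230 for Tuba1a, -0.220 for Dpf1, -0.213 for Hsph1, -0.204 for Kif3b, -0.201 for Hes6, -0.200 for Apc, -0.196 for Nr1d1 and -0.170 for Ncor1. The remaining negative values were -0.168 for Rbfox2, -0.166 for Chd3 and -0.151 for Tubb5.

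Positive differences, where the effect was higher in libraries 3 and 4, were 1.96 for Misp, 0.693 for Cdkn1a, 0.553 for S1pr3, 0.514 for Mdk, 0.452 for Gad1, 0.432 for Plagl1, 0.414 for Aen and 0.331 for Tp53inp1. The others were 0.310 for Hist3h2a, 0.287 for Snrnp70, 0.284 for Gfap, 0.258 for Bax, 0.252 for Fn1, 0.225 for Srrm3 and 0.196 for Tra2a.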

How the results depend on the processing

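The counts of genes called kept their split within 10 percentage points under every setting except upper-quartile scaling, which called 3711 higher and 2768 lower. The total was 6195 with RLE scaling, 5983 with DESeq2, 6336 with limma-voom, and 5030 to 6444 with 1 library left out at a time. With the replicate number as a block 3216 genes were higher and 3593 lower, 6809 in all, and the block ended the call of no gene named above and gave one to Lss. Rises of at least 2-fold numbered 58 with the strict filter (5 CPM in 3 libraries), and falls of at least 2-fold 99, so that falls outnumbered rises; fewer genes of low level were tested there. Falls of at least 2-fold numbered 115 in libraries 1 and 2 alone and 473 in libraries 3 and 4 alone, where the cause was not tested. Under 1 CPM 491 genes were higher and 69 lower with no low-count filter, where more genes were tested. Of 220 named genes called, 6 lost the call when some single library was left out, 16 in libraries 1 and 2 alone, 2 in libraries 3 and 4 alone and 1 with upper-quartile scaling, and none changed direction in any setting run. The planned counts by protein length were not run, as no protein table was used here. At low levels depth limits the comparison, as 1 CPM stood for 12.1 reads in the smallest library and 18.8 in the largest.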
